A study of Mus musculus with 2 samples.

Results

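The regions described here are the heart transcribed regions that lie close to one another in the genome. A tissue-specifically transcribed region (TSTR) is a stretch of intergenic sequence with more RNA reads in one tissue than in the other, as called by the study. A heart TSTR was counted as clustered when the gap to the nearest other heart TSTR on the same chromosome was at most 10000 bp, and clustered TSTRs linked in this way form a domain. By this rule 478 of the 834 heart TSTRs were clustered and 356 were isolated, out of 1912 TSTRs of both tissues. The 478 TSTRs formed 122 domains. The rule used positions alone, but the study had put these regions on the list by their reads in both tissues. Having a listed neighbour is therefore not independent of the reads, and the comparisons of clustered with isolated TSTRs below share this limit.

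The study sequenced total RNA from heart and from limb of CD-1 strain mouse embryos at embryonic day 11.5, with 1 pooled sample per tissue and no treatment or genetic change in either. Ribosomal RNA was removed before a strand-specific protocol, but the deposited read counts carry no strand. With 2 samples in all, replicate error could not be measured for any value, and the intervals given below cover the counting of reads only. The study selected the heart TSTRs for their difference between heart and limb, so a higher level in heart is largely a property of the list. All clustered TSTRs had a higher RPKM in heart, and 2 isolated ones did not. By the study's z-test of proportions, with the totals given below in place of the study's own, 59 of the 478 clustered and 120 of the 356 isolated TSTRs did not reach p under 0.01. The files hold intergenic regions and no gene levels, so the labelled tissues could not be checked against their marker genes. In whole tissues, fewer cells of a type and less RNA per cell cannot be told apart. Count, length and RPKM (reads scaled by region length and library total) imply totals of 222362239 heart and 192488089 limb reads. The floor of 3 reads used below is 1.349e-06% of the heart total and 1.559e-06% of the limb total. Positions are on mm9, as deposited.

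RNA from intergenic DNA comes from several known sources. Active enhancers are transcribed into short, often bidirectional and unstable enhancer RNAs, long non-coding genes give longer transcripts, and RNA polymerase can run past the annotated end of a gene. A group of neighbouring transcribed regions can therefore be a set of separate elements or pieces of 1 longer transcript, and counts without strand do not separate these cases. In the heart at this stage, muscle cells beat and assemble sarcomeres under transcription factors of the GATA, NKX, T-box, MEF2, TEAD and SRF families, while endocardial cells form the cushions that become valves.

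The sequences below come from 6 domains that lie beside genes of heart muscle or that hold many TSTRs. Each is a window of 300 bp centred on the TSTR of that domain with the most heart reads, read from the plus strand of the NCBIM37 genome (the same build as mm9). Capitals mark matches, on either strand, to a short pattern chosen for each factor family. The letters AGATAA stand for the zinc-finger factors of the heart, and AGGTGT for T-box factors. For NKX factors the letters were CACTTNA, and for TEAD factors GGAATG, while the longer MEF2 pattern is given by its name. The windows are chr17:26986664-26986963 (Nkx2-5), chr11:65089355-65089654 (Myocd), chr5:122543983-122544282 (Myl2), chr14:55615539-55615838 (Myh7), chr2:107140024-107140323 (Kcna4) and chr3:19597273-19597572 (Crh).
Nkx2-5: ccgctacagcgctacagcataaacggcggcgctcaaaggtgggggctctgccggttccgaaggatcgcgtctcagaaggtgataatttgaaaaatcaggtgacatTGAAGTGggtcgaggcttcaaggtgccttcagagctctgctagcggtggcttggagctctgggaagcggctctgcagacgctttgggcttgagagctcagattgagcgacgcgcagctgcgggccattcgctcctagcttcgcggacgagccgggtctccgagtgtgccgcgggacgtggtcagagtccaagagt
Myocd: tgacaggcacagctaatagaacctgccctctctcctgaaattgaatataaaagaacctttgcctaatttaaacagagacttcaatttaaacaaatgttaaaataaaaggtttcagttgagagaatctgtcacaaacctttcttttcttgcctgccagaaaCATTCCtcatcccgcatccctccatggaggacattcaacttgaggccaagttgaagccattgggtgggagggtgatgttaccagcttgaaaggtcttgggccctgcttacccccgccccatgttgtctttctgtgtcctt
Myl2: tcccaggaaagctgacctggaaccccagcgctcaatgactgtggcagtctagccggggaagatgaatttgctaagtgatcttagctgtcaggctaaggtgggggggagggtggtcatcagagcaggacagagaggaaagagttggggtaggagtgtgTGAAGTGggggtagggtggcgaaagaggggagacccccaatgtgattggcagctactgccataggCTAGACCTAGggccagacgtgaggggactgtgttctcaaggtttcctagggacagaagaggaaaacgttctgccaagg
Myh7: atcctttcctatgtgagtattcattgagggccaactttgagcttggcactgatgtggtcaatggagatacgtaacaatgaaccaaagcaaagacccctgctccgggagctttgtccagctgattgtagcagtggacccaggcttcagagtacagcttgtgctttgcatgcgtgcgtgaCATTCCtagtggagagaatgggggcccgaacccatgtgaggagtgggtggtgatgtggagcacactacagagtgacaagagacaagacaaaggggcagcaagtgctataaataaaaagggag
Kcna4: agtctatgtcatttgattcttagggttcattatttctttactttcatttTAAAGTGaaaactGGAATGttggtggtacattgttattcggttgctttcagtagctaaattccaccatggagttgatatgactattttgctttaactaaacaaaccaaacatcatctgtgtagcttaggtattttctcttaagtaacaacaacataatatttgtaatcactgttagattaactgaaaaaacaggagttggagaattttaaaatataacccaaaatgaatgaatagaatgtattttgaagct
Crh: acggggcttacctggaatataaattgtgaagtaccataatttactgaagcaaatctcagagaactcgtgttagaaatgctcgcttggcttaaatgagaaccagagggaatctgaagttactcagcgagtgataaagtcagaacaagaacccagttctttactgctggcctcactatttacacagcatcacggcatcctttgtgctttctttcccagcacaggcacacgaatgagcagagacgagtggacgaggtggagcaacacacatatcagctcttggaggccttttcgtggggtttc
The Myl2 window held 1 NKX match and 1 match to the loose MEF2 pattern (CTAGACCTAG), and the Kcna4 window 1 NKX and 1 TEAD match. The Nkx2-5 window held 1 NKX match, the Myocd and Myh7 windows 1 TEAD match each, and the Crh window none. Only the letters given above were marked. Other forms of a site, such as TGATAA in the Nkx2-5 and Crh windows, were not searched. GC content ran from 29.67% in the Kcna4 window to 60% in the Nkx2-5 window. A match is a run of letters and not a bound site. Of elements tested earlier in transgenic mice, the study lists 1 at the Myl2 window and 1 at the Myh7 window, both annotated for heart. That list holds none at the other windows.

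Most domains were small, and a few were long arrays. Of the 122 domains, 61 held 2 TSTRs, 20 held 3 and 14 held 4. The 27 domains with at least 5 TSTRs held 240 of the 478 clustered TSTRs, and the 8 with at least 10 held 125. The longest array, of 27 TSTRs, lay on chromosome 6 (chr6:90884169-90937596), 88716 bp upstream of the closest protein-coding start, that of Rpl21-ps12. Domain spans ran from 1383 to 53427 bp with a median of 4278 bp, and TSTRs covered a median of 45.08% of a span. The X chromosome and every autosome carried at least 1 domain, with 14 on chromosome 2 and 11 each on chromosomes 1 and 3.

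The gaps inside domains were much shorter than the limit allowed. Among the 356 neighbouring pairs the median gap was 985 bp, 183 pairs were at most 1000 bp apart and 30 were over 5000 bp apart. The authors extended alignments to 200 bp, and 64 pairs lay under 200 bp apart, of which 34 overlapped, so some reads can count in both members of such a pair. The widest gap inside a domain was 9981 bp, between 2 TSTRs on chromosome 5 with 11 and 23 heart reads and 0 limb reads each. Just outside the limit were a TSTR at chr16:72307161-72307510 (gap 10223 bp, 17 heart and 1 limb reads) and one at chr11:119295845-119296444 (gap 10243 bp, 132 heart and 18 limb reads). These stand beside the Robo1 and Rnf213 domains described below. Isolated TSTRs were far from their neighbours, with a median gap of 1367675 bp.

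**Figure D1:**
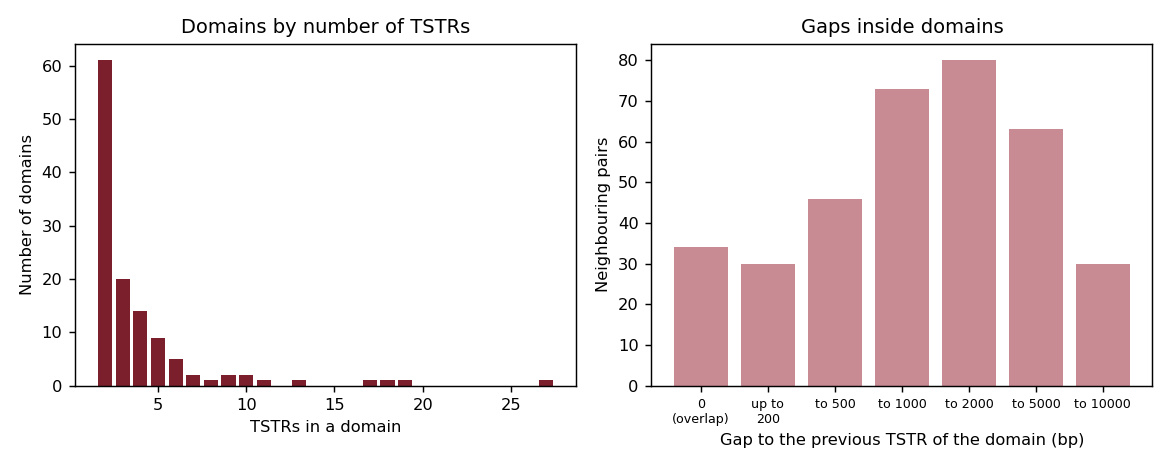
Left, number of heart domains (vertical axis) by the number of TSTRs they hold (horizontal axis); right, number of neighbouring pairs inside domains by the gap between them in bp. Pairs of TSTRs make up 61 of the 122 domains, 1 domain holds 27 TSTRs, and 30 of the 356 gaps exceed 5000 bp.

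Clustered TSTRs differed from isolated heart TSTRs mainly in their length and in their limb reads. Their median length was 705 bp against 305.5 bp, and their median heart reads 46 (range 10 to 2096) against 29.5 (10 to 1359). The heart level per length was nearly the same, with a median of 0.2893 RPKM in clustered and 0.2918 RPKM in isolated TSTRs. The limb level was lower in the clustered ones, with medians of 0.02666 and 0.06531 RPKM. Clustered TSTRs held 38662 of the 68155 heart reads of the list (56.73%) but 8339 of its 23137 limb reads (36.04%). No test was made between these sets, since both tissues have a single library.

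The tissue-specificity index, the difference of heart and limb RPKM divided by their sum, therefore lay higher in clustered TSTRs. It is 0 for equal levels and 1 where limb has no reads. Its median was 0.8348 in clustered TSTRs, 0.6246 in isolated ones and 0.7331 over all heart TSTRs. A heart level at least 4 times the limb level, with 0 limb reads set to 3, was found in 331 of 478 clustered TSTRs (69.25%), against 58.8% of all 834 heart TSTRs and 159 of 356 isolated ones (44.66%). No limb read was counted in 121 clustered TSTRs (25.31%) and in 69 isolated ones (19.38%), which at this depth does not show absence. Among TSTRs with at least 20 heart reads the shares at 4 times or more were 71.78% (262 of 365) and 35.65% (77 of 216), so the higher share in clusters was also present among the better covered regions. The clustered TSTRs of the limb list had a median index of 0.5921, on their own tissue's side, and 240 of 502 (47.81%) at 4 times or more, against 52.43% of isolated limb TSTRs. For these measures the difference between clustered and isolated TSTRs thus had the opposite sign in limb. The share with no reads in the other tissue did not, at 12.95% of clustered and 11.28% of isolated limb TSTRs. The 2 lists are unlike in how their members pass the z-test with the implied totals. Only 1 of 502 clustered and 2 of 576 isolated limb TSTRs did not reach p under 0.01 by this z-test. In the heart list these were 59 of 478 and 120 of 356, so heart and limb are compared here at unlike selection.

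**Figure D2:**
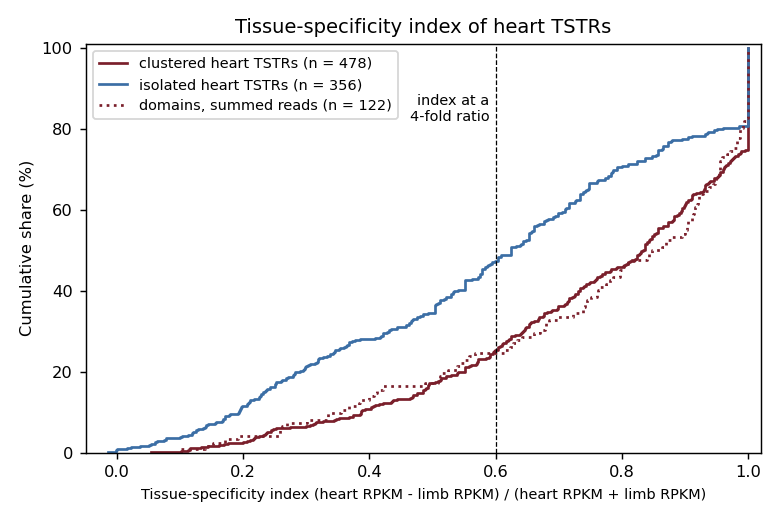
Cumulative share of TSTRs or domains (vertical axis, percent) up to each tissue-specificity index (horizontal axis, no unit) for 478 clustered TSTRs, 356 isolated heart TSTRs and 122 domains with summed reads. The curve of clustered TSTRs lies to the right of that of isolated ones, with medians of 0.8348 and 0.6246, and the dashed line marks the index of a 4-fold ratio.

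Summed over their TSTRs, the domains held between 27 and 7169 heart reads (median 130.5) and between 0 and 2585 limb reads (median 7.5). The median ratio of heart to limb was 9.666, and 92 of the 122 domains reached a ratio of 4 and 41 a ratio of 20. At the other end, 10 domains were below 2, and 21 had no limb read in any TSTR. The 10 domains with the most heart reads held 18712 reads, 48.4% of all clustered heart reads.

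**Figure D3:**
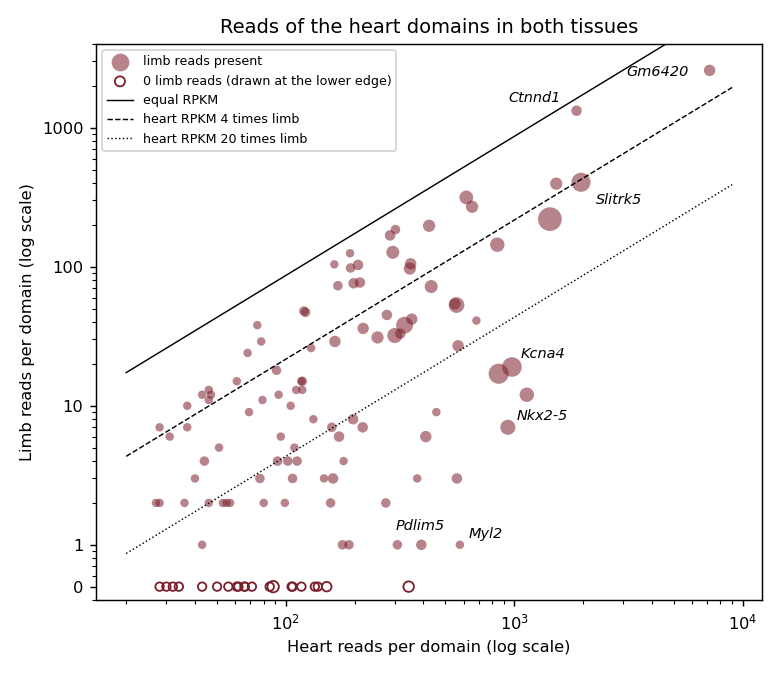
Heart reads (horizontal axis) and limb reads (vertical axis) of each of the 122 domains on log scales, with the symbol area increasing with the number of TSTRs and open symbols for the 21 domains with 0 limb reads. Lines mark equal RPKM and heart levels of 4 and 20 times the limb level, with 92 domains at or beyond the 4-fold line.

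The ratio of heart to limb varied less within domains than over all clustered TSTRs. On the log2 ratio with 1 read added to both tissues, a scale chosen after the data were seen, the SD within domains was 0.77 and the SD over all 478 TSTRs was 1.62. The share of the variance that lay between domains was 0.7757 on this scale, and 0.8638 over 336 TSTRs with at least 20 heart reads in 86 domains. For the log2 heart RPKM the shares were 0.5502 and 0.6151, so less of its variance lay between domains. Its SD was 0.51 within domains and 0.76 over all 478 TSTRs, both smaller than those of the ratio. All TSTRs reached the 4-fold ratio in 54 domains and none did in 19, while 49 domains held both kinds. TSTRs of a domain share both libraries and can be pieces of 1 transcript, so these shares are a description.

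Among the domains next to cardiac transcription factors, the one around Nkx2-5 was the most extensive. Nkx2-5 encodes a homeodomain factor of the early heart, and its domain at chr17:26970365-26993039 held 10 TSTRs on both sides of the gene, which lies at 26975609 to 26978510 on the minus strand. The 7 TSTRs upstream of the gene had 718 heart and 4 limb reads, and the 3 downstream 220 heart and 3 limb reads. The TSTR with the most reads, whose centre is printed above, lay upstream of the gene at 26986078 to 26987548 and had 276 heart reads and 0 limb reads. Heart reads of the other 9 ran from 13 to 163, with at most 2 limb reads in any of them. The heart level was 0.3947 RPKM and the limb level 0.003403 RPKM, a ratio of 116 (95% interval 56.08 to 289.3).

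Myocardin (Myocd), a coactivator of SRF in heart and smooth muscle, had 2 domains upstream of its start. The one at chr11:65083572-65090036 began 82 bp from the start and held 3 TSTRs with 71, 58 and 145 heart reads and 0, 0 and 2 limb reads, a ratio of 118.6 (32.52 to 984.2). The other, 148458 bp away at chr11:65231948-65233529, had TSTRs of 40 and 31 heart reads and no limb reads. Against the floor of 3 limb reads it was at least 20.49-fold higher in heart, and the exact 95% lower limit was 16.23. The remaining domain of this list lay 74659 bp upstream of Tead1, a TEA-domain factor, with 91 and 14 heart reads and 7 and 3 limb reads (ratio 9.089, 4.752 to 19.51). That domain was closer to the body of Parva, a focal adhesion protein, 10074 bp past its 3′ end.

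Genes of the contractile apparatus were the closest genes of 6 domains. Myl2 encodes the regulatory myosin light chain of the ventricle. Its domain, 4147 bp upstream of the start at chr5:122543178-122546813, held 2 TSTRs of 404 and 174 heart reads, with 1 and 0 reads in limb. The ratio was 500.3, with a wide interval of 89.45 to 19796 that follows from the single limb read. Upstream of Pdlim5, a PDZ and LIM domain protein of the Z-disc, 4 TSTRs held 16, 14, 60 and 302 heart reads and 0, 1, 0 and 0 limb reads (ratio 339.3, 60.55 to 13437). That domain, at chr3:142085547-142093243, was 26918 bp from the gene.

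The domains at Myh7 and Tpm1 began next to the gene start, at 96 and 51 bp. Myh7, the slow myosin heavy chain, had 21 and 78 heart reads with 1 limb read in either TSTR (ratio 42.85, 11.55 to 358.7). Tpm1, a tropomyosin of the thin filament, had 45, 44 and 13 heart reads and 2, 2 and 0 limb reads (ratio 22.07, 8.362 to 82.56). At Actc1, the cardiac actin, 3 TSTRs 15919 bp upstream had 75, 13 and 19 heart reads and 3, 0 and 0 limb reads (ratio 30.87, 10.28 to 152.1). Every TSTR of these 3 domains had at least 13 heart reads and at most 3 limb reads.

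Lmod2, a leiomodin that nucleates actin in thin filaments, differed in that its domain lay past the end of the gene. The domain at chr6:24556414-24562672 began 1001 bp after the 3′ end. Its 5 TSTRs, in order of distance from the gene, had 127, 57, 188, 110 and 68 heart reads and 5, 3, 16, 17 and 13 limb reads. The index fell with distance, from 0.913 to 0.6382, as limb reads rose relative to heart reads. The far end of the domain lay 1132 bp from the 3′ end of Wasl, an actin nucleation promoting factor on the opposite strand. Over the domain the ratio was 8.817 (6.659 to 11.89).

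Among signalling genes, Tgfb2, Nrg1 and Wnt2 had domains. Tgfb2, a ligand acting in cushion formation, had 2 domains past its 3′ end with 345 and 189 heart reads and 0 and 1 limb reads. Nrg1, the endocardial ligand of ErbB receptors, had TSTRs with 33 and 99 heart reads and 6 and 2 limb reads (ratio 14.28, 7.041 to 33.77) that began 4160 bp past its 3′ end. Wnt2, a ligand made in the inflow region, had TSTRs with 22 and 96 heart reads and 1 and 12 limb reads (ratio 7.857, 4.422 to 15.19) from 1267 bp past its end. Of the ion handling and endothelial lists, 1 domain was closest to Slc8a1, the sodium-calcium exchanger (177 heart and 1 limb reads), and 1 to Npr3, a natriuretic peptide receptor (159 and 7).

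Counted by closest protein-coding start, 16 of the 122 domains (13.11%) belonged to a gene of the 5 heart lists, which hold 170 genes. The same share was 7.022% of isolated heart TSTRs (25 of 356), 1.935% of limb domains (3 of 155) and 1.91% of isolated limb TSTRs (11 of 576). By list these were 4 domains for cardiac transcription factors, 6 for sarcomere proteins, 1 for ion handling, 4 for signalling and 1 for endothelial and valve genes. No heart domain had a blood cell gene or a limb patterning gene as its closest gene, but such genes were rare in every set. Blood cell genes were closest to 0 of 356 isolated heart TSTRs, 0 of 155 limb domains and 1 of 576 isolated limb TSTRs. For limb patterning genes the counts were 3 of 356, 3 of 155 and 3 of 576. The lists were chosen with earlier results of these data known, so the counts describe these domains and are not independent evidence.

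The domains with the most TSTRs or reads lay mostly beside genes outside these lists. The one with the most heart reads, at chr1:23263380-23275804, lay 136 bp from the start of Gm6420 and is upstream of the gene of the microRNA Mir30a. Its 5 TSTRs had 687 to 2096 heart reads and 253 to 767 limb reads, and the ratio was low, at 2.401 (2.295 to 2.512). This narrow interval covers the counting of reads only, and not the choice of library totals. Past the 3′ end of Qk, an RNA-binding protein of muscle and glia, 6 TSTRs had 34 to 570 heart reads and 7 to 167 limb reads (ratio 3.338, 2.987 to 3.738).

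Kcna4 encodes a voltage-gated potassium channel. Its domain at chr2:107138770-107169541 held 18 TSTRs that began 112 bp past the 3′ end of the gene, with 10 to 93 heart reads and 0 to 5 limb reads per TSTR. The ratio was 44.51 (28.35 to 74.26), and 8 of the 18 had no limb read. The heart level was 0.3915 RPKM in the TSTR nearest to the gene, 0.4793 RPKM in the one with the highest level and 0.1509 RPKM in the furthest.

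Slitrk5, a transmembrane protein known from neurons, had 17 TSTRs at chr14:112083838-112133920, from 1483 bp past its 3′ end. Heart reads ran from 11 to 492 and limb reads from 1 to 110, a ratio of 4.191 (3.764 to 4.676). The heart level rose from 0.6352 RPKM in the first TSTR to 1.356 RPKM in the second, and from there it fell, with small rises on the way, to 0.2302 RPKM in the last. The limb level fell along the same path, from 0.3502 RPKM in the second TSTR to 0.02045 RPKM in the last. The course of the levels was broadly alike in both tissues.

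The array of 27 TSTRs upstream of Rpl21-ps12 changed less along its span. Its heart levels lay between 0.1935 and 0.476 RPKM and its limb levels between 0.02075 and 0.1245 RPKM. The first 7 TSTRs had heart levels of 0.1935 to 0.258 RPKM and the last 8, on the side of Nup210, 0.337 to 0.4232 RPKM. In all, 1433 heart and 220 limb reads gave a ratio of 5.639 (4.889 to 6.528), and 22 of the 27 TSTRs reached the 4-fold ratio. The closest gene body, that of Nup210, a nuclear pore protein, faced this side with its 3′ end from 25466 bp away.

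Ano4, a member of the anoctamin family, had 19 TSTRs upstream of its start at chr10:88734423-88780243. They had 12 to 121 heart reads and 0 to 7 limb reads, with 11 at 0 in limb, and a ratio of 43.54 (27.03 to 75.09). In the domain across Crh, which encodes corticotropin-releasing hormone, 9 TSTRs had 1135 heart and 12 limb reads (ratio 81.88, 46.69 to 158.9). That domain, at chr3:19592509-19613010, began 911 bp past the 3′ end of Trim55, a muscle RING finger protein of the sarcomere. All 9 TSTRs at Rnf213, a ubiquitin ligase, lay in exons of the annotation used here (843 heart and 144 limb reads, ratio 5.068).

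**Figure D4:**
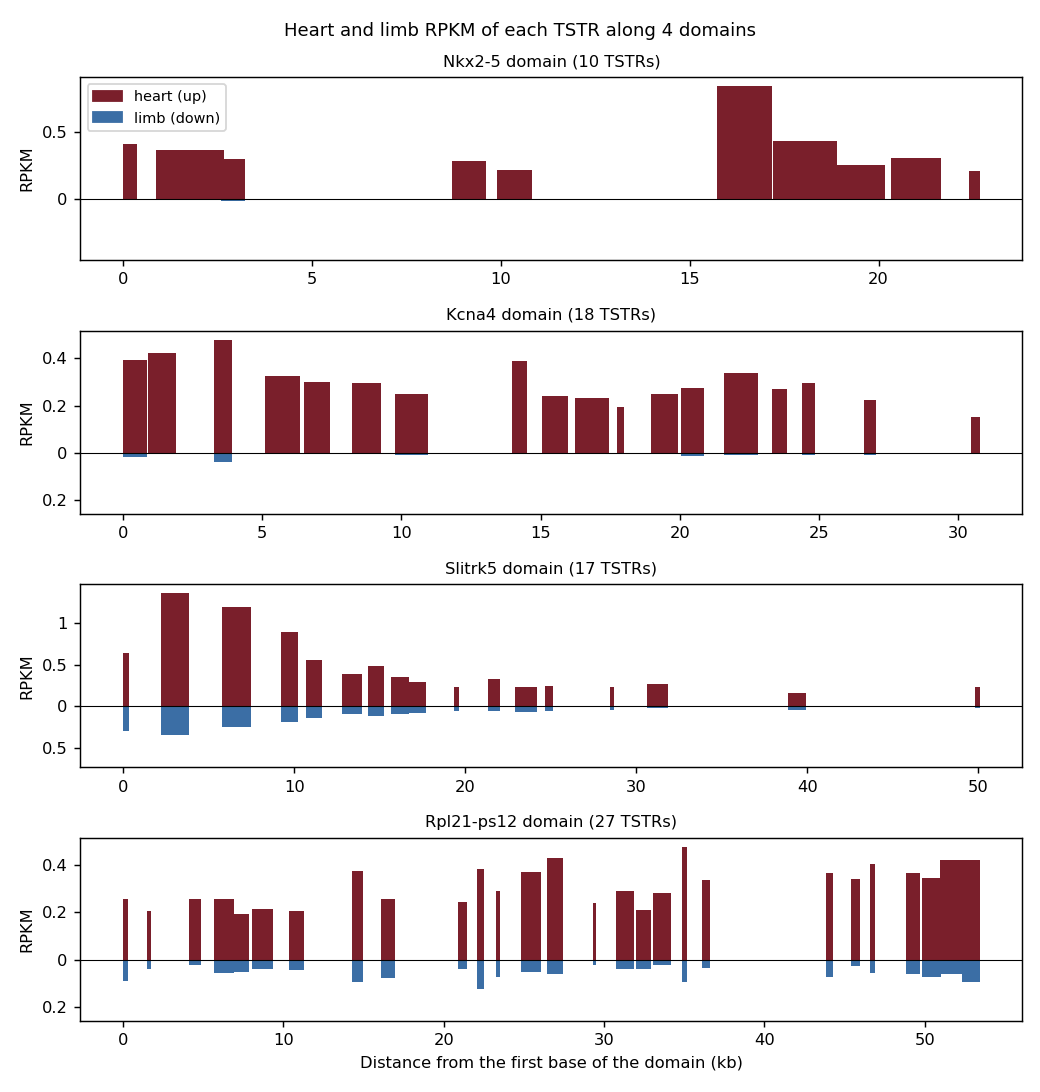
Level of each TSTR in RPKM, heart upward and limb downward, along the distance in kb from the first base of the domains at Nkx2-5, Kcna4, Slitrk5 and Rpl21-ps12. In the Slitrk5 domain both tissues are lower at the far end than in the second TSTR (heart 1.356 and 0.2302 RPKM), while the 27 TSTRs of the Rpl21-ps12 domain lie between 0.1935 and 0.476 RPKM in heart.

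Robo1, a receptor for Slit ligands, was the closest gene of 3 domains that lay 366456 to 498802 bp upstream of its start. Together they held 34 TSTRs over 149363 bp, with 1190 heart and 123 limb reads. Their ratios were 9.13, 7.54 and 8.115, each within the counting intervals of the others. Map3k7, a kinase of TGF-beta signalling, was also the closest gene of 3 domains, 87114 to 661153 bp upstream of its start. These domains held 14 TSTRs with 640 heart and 44 limb reads. Their ratios were unlike, at 7.037 (4.834 to 10.58) in the middle domain against 26.84 (12.8 to 67.54) and 24.67 (11.1 to 68.17) in the outer ones. In all, 13 genes were closest to at least 2 domains, and the 122 domains had 107 different closest genes.

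The domains with an index of 1, meaning no limb reads, numbered 16 among those with at least 50 heart reads. Ranked by heart reads, the first 3 were the Tgfb2 domain with 345 (at least 99.55-fold against the floor, exact lower limit 80.53), a domain of 3 TSTRs closest to Tbx19 with 151 (at least 43.57-fold, limit 35) and a domain of 2 TSTRs with 138 (at least 39.82-fold, limit 31.95). The last of these had Dpy19l2 as closest start but lay 5182 bp past the 3′ end of Tbx20, a cardiac T-box factor, and its TSTRs had 71 and 67 heart reads.

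The lowest indices were found in domains just past the 3′ ends of genes. At Ctnnd1, which encodes p120 catenin of cell junctions, 4 TSTRs began 554 bp past the 3′ end. In order of distance from the gene they had 699, 581, 399 and 195 heart reads and 480, 451, 271 and 122 limb reads. The ratio was 1.225 (1.141 to 1.316). The 2 TSTRs closest to the start of 2700007P21Rik lay 644 bp past the 3′ end of Mpped2 (191 heart and 125 limb reads, ratio 1.323, 1.05 to 1.671). Those closest to the start of Il10 lay 919 bp past the 3′ end of the kinase gene Mapkapk2 (163 and 104 reads, ratio 1.357, 1.054 to 1.752).

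Measured from gene starts, the domains were distant, but many lay close to the other end of a gene. The median distance from a domain to the closest protein-coding start was 44330 bp, 91 of 122 were more than 10000 bp away, and the domain lay downstream of that gene in 62 cases and upstream in 51. The median distance to the closest protein-coding gene body was 1278 bp. The end of the gene that faced the domain was the 3′ end within 5000 bp in 57 domains (46.72%) and the 5′ start in 11 (9.016%). A further 14 domains (11.48%) overlapped a gene or spanned one, and 40 were over 5000 bp from any protein-coding gene. This breakdown was chosen after the data were seen.

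Proximity to a 3′ end was not particular to heart domains. Within 5000 bp past a 3′ end lay 45.16% of limb domains (70 of 155), 35.39% of isolated heart TSTRs (126 of 356) and 34.2% of isolated limb TSTRs (197 of 576). Isolated limb TSTRs were more often within 5000 bp of a 5′ start, at 29.34%, than isolated heart TSTRs, at 13.2%.

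**Figure D5:**
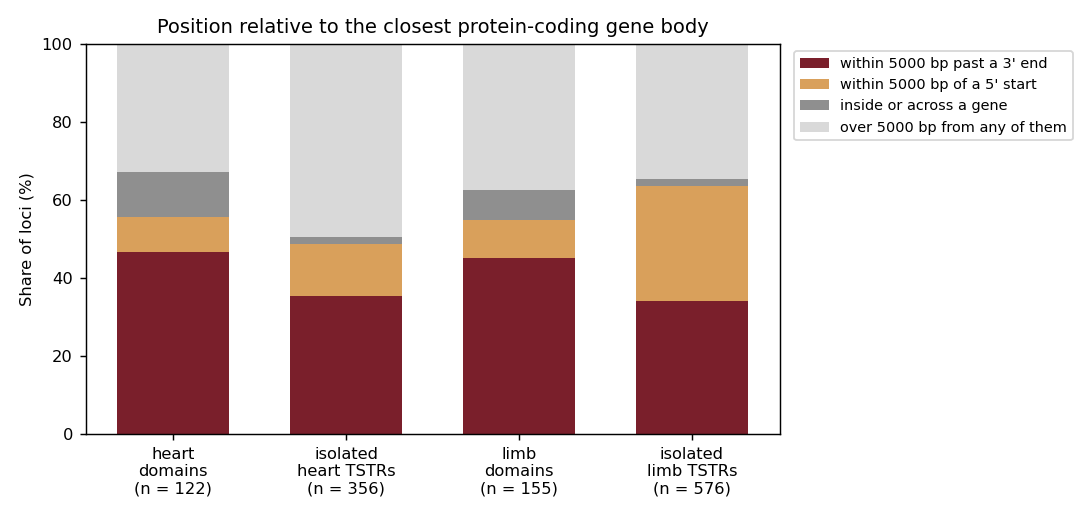
Share in percent (vertical axis) of heart domains, isolated heart TSTRs, limb domains and isolated limb TSTRs (horizontal axis, with their numbers) by position relative to the closest protein-coding gene body. Positions within 5000 bp past a 3′ end take 46.72% of heart domains and 45.16% of limb domains.

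Domains past a 3′ end had lower tissue ratios than those away from protein-coding genes. The median domain index was 0.7742 in the 57 domains within 5000 bp past a 3′ end and 0.9221 in the 40 over 5000 bp from any protein-coding gene. Of the 57, 40 reached the 4-fold ratio, 8 were below 2 and 6 had no limb reads, whereas the 40 distant domains had 34, 0 and 11. In the 11 domains at a 5′ start the median index was 0.9139, and in the 14 that overlapped or spanned a gene it was 0.9603. The TSTR nearest to the gene had a higher heart RPKM than the furthest one in 39 of the 57 domains past a 3′ end (68.42%), in 5 of the 11 at a 5′ start and in 21 of the 40 distant ones (52.5%). Whether these reads belong to transcripts of the neighbouring gene was not tested, since strand and gene levels are not in the files used here.

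Taking the closest gene body in place of the closest start brought further heart genes into view, and raised the heart-list count to 20 domains (16.39%), although the Tead1 domain dropped out. The count also rose among isolated heart TSTRs, to 30 of 356 (8.427%). The genes named in this paragraph were chosen after their values were seen. Gata4, a zinc-finger factor of the early heart, had 4 TSTRs from 151 bp past its 3′ end with 43, 51, 58 and 45 heart reads and 2, 1, 2 and 3 limb reads (ratio 21.32, 10.61 to 50.07). The other side of that domain lay 925 bp upstream of the start of Neil2, its closest start. Zfpm2, the FOG cofactor of GATA proteins, had 65, 32 and 15 heart reads and 2, 2 and 0 limb reads from 348 bp past its end (ratio 24.24, 9.207 to 90.51). Past the end of Ttn, the giant sarcomere protein titin, 2 TSTRs had 92 and 19 heart reads and 11 and 2 limb reads (ratio 7.391, 4.15 to 14.32). Pdlim5 had a second domain, 1184 bp past its 3′ end, whose closest start was that of Bmpr1b. It had 277 heart and 45 limb reads, a ratio of 5.329 (3.878 to 7.474) against 339.3 in the upstream one. Among genes outside the lists, the domain past Mb, the myoglobin gene, had 161 heart and 3 limb reads, and that past Hspb7, a small heat shock protein of heart muscle, 85 and 0. A domain around Gm5481 began 393 bp past the 3′ end of Pkp2, a desmosome protein, and had 157 heart and 2 limb reads.

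Few clustered TSTRs fell inside annotated genes. In the GENCODE annotation used here 42 of 478 (8.787%) overlapped a gene and 26 an exon, against 10 and 7 of the 356 isolated ones. Besides Rnf213, exons accounted for all 10 TSTRs of 2 domains in Syne1, a nuclear envelope protein, and for 4 of 8 in Adamts9, an extracellular protease. The 7 TSTRs within Dlg2, a synaptic scaffold, were intronic. This annotation is not the one with which the study removed genes.

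Limb TSTRs were seldom close to heart TSTRs of either kind. No limb TSTR lay inside a heart domain or within 10000 bp of one, and 8 of 356 isolated heart TSTRs (2.247%) had a limb TSTR within that distance. The closest limb TSTR to any heart domain was 33807 bp from the domain near Zfp161, and the median distance was 1272096 bp. Within 100000 bp of a limb TSTR lay 11 domains (9.016%) and 28 isolated heart TSTRs (7.865%). Among the 11 domains were those of Nkx2-5 (87310 bp) and Myl2 (81520 bp).

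In base composition the clustered TSTRs resembled the isolated ones. The median GC content of their central 300 bp was 41% (quartiles 35.67 and 46) against 40.67%, and the CpG content relative to its expectation was 0.1728 against 0.195. The letters AGATAA occurred in 23.22% of clustered windows, 19.38% of isolated heart windows and 18.92% and 16.49% of clustered and isolated limb windows. The loose MEF2 pattern occurred in 7.113% (34 of 478), 3.371% (12 of 356), 6.175% and 6.076% in the same order. AGGTGT was in 14.44% of clustered and 14.89% of isolated heart windows, CACTTNA in 16.11% and 17.13%, GGAATG in 15.9% and 15.45%, and a loose form of the SRF site, whose matches are not capitalised above, in 46.23% and 48.88%. No test was made, and windows of 1 domain can overlap.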

How the data were processed

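Total RNA of 1 pooled heart and 1 pooled limb sample was sequenced. Per the labels and the study's methods, the authors processed reads with CASAVA 1.8, aligned with Bowtie2 (its version is not given in the sources used here) against mm9, extended alignments to 200 bp, called enriched intergenic regions and kept those differing between the tissues. They deposited raw read counts and RPKM values, scaled by region length and library total, for each region.

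From these files, heart TSTRs were linked at gaps of at most 10000 bp. Domain ratios used summed counts and the totals implied by count, RPKM and length, with exact Clopper-Pearson intervals at 95%. Limb counts of 0 were set to 3 reads. Smallest heart count of a TSTR was 10. With 1 sample per tissue, no test is a main result, and the two-proportion z-test, with the implied totals, served as an alternative call rule. Genes came from GENCODE vM1 on NCBIM37, and all lengths of intervals are end minus start. The calculations were tested on simulated data. Python 3.11.15, numpy 2.4.6, pandas 2.3.3, scipy 1.17.1 and matplotlib 3.10.9 were used.

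The domains named were those with the most TSTRs, the most heart reads, the highest or lowest index among domains with at least 50 heart reads (ties by heart reads), and those closest to genes of the cardiac transcription factor, sarcomere and signalling lists, with at most 6 per list. The TSTRs, 7 gene lists (218 genes) and motifs were chosen with earlier results of these data known. Alternatives were other gap limits, read minimums, totals, call rules and definitions of the closest gene.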

Additional observations from a re-analysis of the deposited data

How the results depend on the processing

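Of 38 alternatives to 9 results, 30 kept counts within 1.5 times the value reported, or other values within their 95% interval, and 8 did not. Within these wide limits, the number of clustered TSTRs was 336 with at least 20 heart reads, and the median distance to a gene start was 27039 bp from any transcript start and 30268 bp at a gap limit of 20000 bp, against 44330 bp. A gap limit of 1000 bp left 294 clustered TSTRs. The share of heart reads in clusters became 56.03% at 5000 bp, 58.57% at 20000 bp, 52.87% with 1 TSTR of each overlapping pair and 51.64% without the Gm6420 domain, which alone holds 7169 heart reads. The share of clustered TSTRs at 4 times or more became 74.69% when every TSTR with 0 limb reads was counted and 87.66% with a z-test of 2 proportions at p under 0.01, the kind of rule by which the study chose the list, here with the implied totals and not the study's total without ribosomal reads. With library totals without ribosomal reads, the share at 4 times or more was 65.48%, lower than the 69.25% reported. The median distance of a domain to a gene became 1278 bp when measured to the gene body. The number of domains stayed between 88 and 132 under all alternatives run. GC content at the other gap limits was added after the data were seen and stayed at 41%. No replicate could be left out. No paired analysis was possible because each tissue has 1 sample. With median limb reads of 3 per clustered TSTR, single TSTRs support only coarse ratios, and the summed domains are better measured.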

Other observations

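Joining domains and isolated TSTRs at gaps up to 50000 bp, a limit chosen after the data were seen, gave 9 groups that held 2 or more domains, 19 domains in all. The widest, upstream of Robo1, spanned 159935 bp with 36 TSTRs, 1218 heart and 126 limb reads, and its 3 domains had indices of 0.803, 0.766 and 0.781. The group near Rpl21-ps12 spanned 147107 bp with 35 TSTRs, 1673 heart and 257 limb reads, and its domains had indices of 0.661 and 0.699.

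Not all such neighbours were alike. In the group closest to Nfib, a nuclear factor I gene, the domain 796 bp past the 3′ end of the gene had 198 heart and 76 limb reads (ratio 2.255), and the one 23739 bp past it 40 and 3 (ratio 11.54). In the group past Mpped2, the domain 644 bp from the gene had a ratio of 1.323 and the one 15517 bp from it a ratio of 3.063 (46 heart and 13 limb reads). In both groups the domain nearer to the gene had the lower ratio, but the counting intervals at Mpped2 overlapped (1.05 to 1.671 and 1.627 to 6.18). The order was reversed in the group closest to Map3k7, with ratios of 24.67 at 87114 bp from the start and 7.037 at 141465 bp. The Nfib and Mpped2 groups were picked after their values were seen and no test was made.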
